A study of Homo sapiens with 36 samples.

Results

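The integrins, laminins and collagens of the array are the genes whose annotated symbol starts with ITGA or ITGB (without ITGB1BP), is LAMA, LAMB or LAMC followed by a digit, or has the form COL, number, A, number. The rule took 131 of 48803 probes and 81 of 18665 gene symbols: 42 collagen, 27 integrin and 12 laminin symbols. Of the 81 symbols, 43 were bright enough to be tested, among 12195 genes tested in all: 23 collagens, 14 integrins and 6 laminins. The rule also took symbols that are no chain of a receptor or matrix protein. ITGB3BP, a nuclear protein named for binding an integrin, was among those tested, while ITGBL1, the antisense transcript LAMA4-AS1 and the pseudogene LAMB2P1 were not.

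Integrins are cell surface receptors made of 1 alpha and 1 beta subunit, and they tie the actin cytoskeleton to the matrix outside the cell. Laminins are trimers of an alpha, a beta and a gamma chain that form the core of the basement membrane under an epithelium. Collagens are triple helices that form fibrils, networks or filaments. In the breast, the luminal cells face the duct while basal cells sit on the basement membrane, and stromal cells make most of the fibrillar collagen.

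RNA came from the human breast cancer line ZR-75-1, established long ago and luminal in character, and was hybridized to Illumina bead arrays, 4 per treatment. Cells stood in 10% hormone-stripped serum for 48 h before a treatment of 16 h. They received estradiol with 5a-dihydrotestosterone (E2+DHT), estradiol with medroxyprogesterone acetate (E2+MPA), estradiol with progesterone under 2 labels (E2s+PROG and E2+PROG), estradiol alone (E2), 5a-dihydrotestosterone alone (DHT), medroxyprogesterone acetate alone (MPA), progesterone alone (PROG) or ethanol vehicle (VC). DHT was used at 10 nM, and so was E2 in the E2 and E2+DHT groups. The labels used here state no dose for MPA or PROG, nor for E2 in E2+MPA, E2+PROG and E2s+PROG. Whether those combinations match the E2 group in E2 dose is therefore not known. The labels also do not say what the s in E2s stands for. DHT is an androgen, and MPA is a synthetic derivative of progesterone that carries a methyl and an acetoxy group which progesterone lacks. All groups share 1 cell line, so no comparison speaks for other breast cells. The labels do not say whether the 4 replicates of a group are separate cultures, so p-values measure only the spread between these arrays, which may be technical.

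On the arrays, all 10 luminal markers, among them KRT8, GATA3 and ESR1, were above background in 36 of 36 samples. The basal keratins KRT5 and KRT14 were above background in 0, as were the stromal genes FAP, PDGFRB, THY1, POSTN and FN1, the endothelial genes CDH5 and TEK and the leukocyte gene PTPRC. Other genes on those marker lists were above background in all 36 arrays, namely ACTA2 and OXTR of the basal list, PDGFRA and S100A4 of the stromal list, and CD68 and CD14 of the leukocyte list. Of the endothelial list, PECAM1 was above background in 34 arrays, VWF in 26 and KDR in 2. The arrays also differed by their place in the deposited table. The 12 arrays in columns 13 to 24 differed within groups from the other 24, with 46% of all genes past an adjusted p of 0.05. Of the 43 members, 11 were higher and 4 lower there. They hold 3 of the 4 DHT arrays, 2 each of E2+MPA, E2+PROG and E2, 1 each of E2+DHT, E2s+PROG and VC, and 0 of the MPA and PROG arrays. Vehicle replicate 1 lies outside those columns but scored with them on the first residual component.

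All values below are normalized log2 signals per array, and differences are on the log2 scale. A probe's signal depends on its sequence, so levels of different genes are not compared. Each difference comes from a limma model of all 36 arrays, with a Benjamini-Hochberg adjusted p over all 12195 genes and a threshold of 0.05. Of the 43 members, 22 were above background on all 36 arrays. They are the integrins ITGA2, ITGA3, ITGAE, ITGAL, ITGAV, ITGB1, ITGB2, ITGB4 and ITGB5, the laminins LAMA5, LAMB1, LAMB2, LAMB3 and LAMC1, and the collagens COL1A1, COL7A1, COL8A1, COL8A2, COL9A2, COL12A1, COL16A1 and COL18A1. The remaining 38 symbols were not tested. Of these, 26 were above background on no array, including COL1A2 and COL3A1 of fibrillar collagen, ITGA1, ITGA4, ITGB3 and ITGB6 of the receptors, and LAMA4 of the laminins. Another 12, among them COL6A2, ITGB8 and LAMA2, were above background on 1 to 3 arrays.

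Across 18 comparisons, 9 members passed the threshold at least once, in 18 pairs of gene and comparison, and 34 members passed in none. The called members are the integrins ITGA5, ITGA10 and ITGB4, the laminin LAMB3 and the collagens COL5A1, COL6A1, COL14A1, COL15A1 and COL18A1. The comparison of E2+PROG with PROG had the highest count, 5 members, and 10 comparisons had 0. The 9 genes are given below by treatment.

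**Figure D1:**
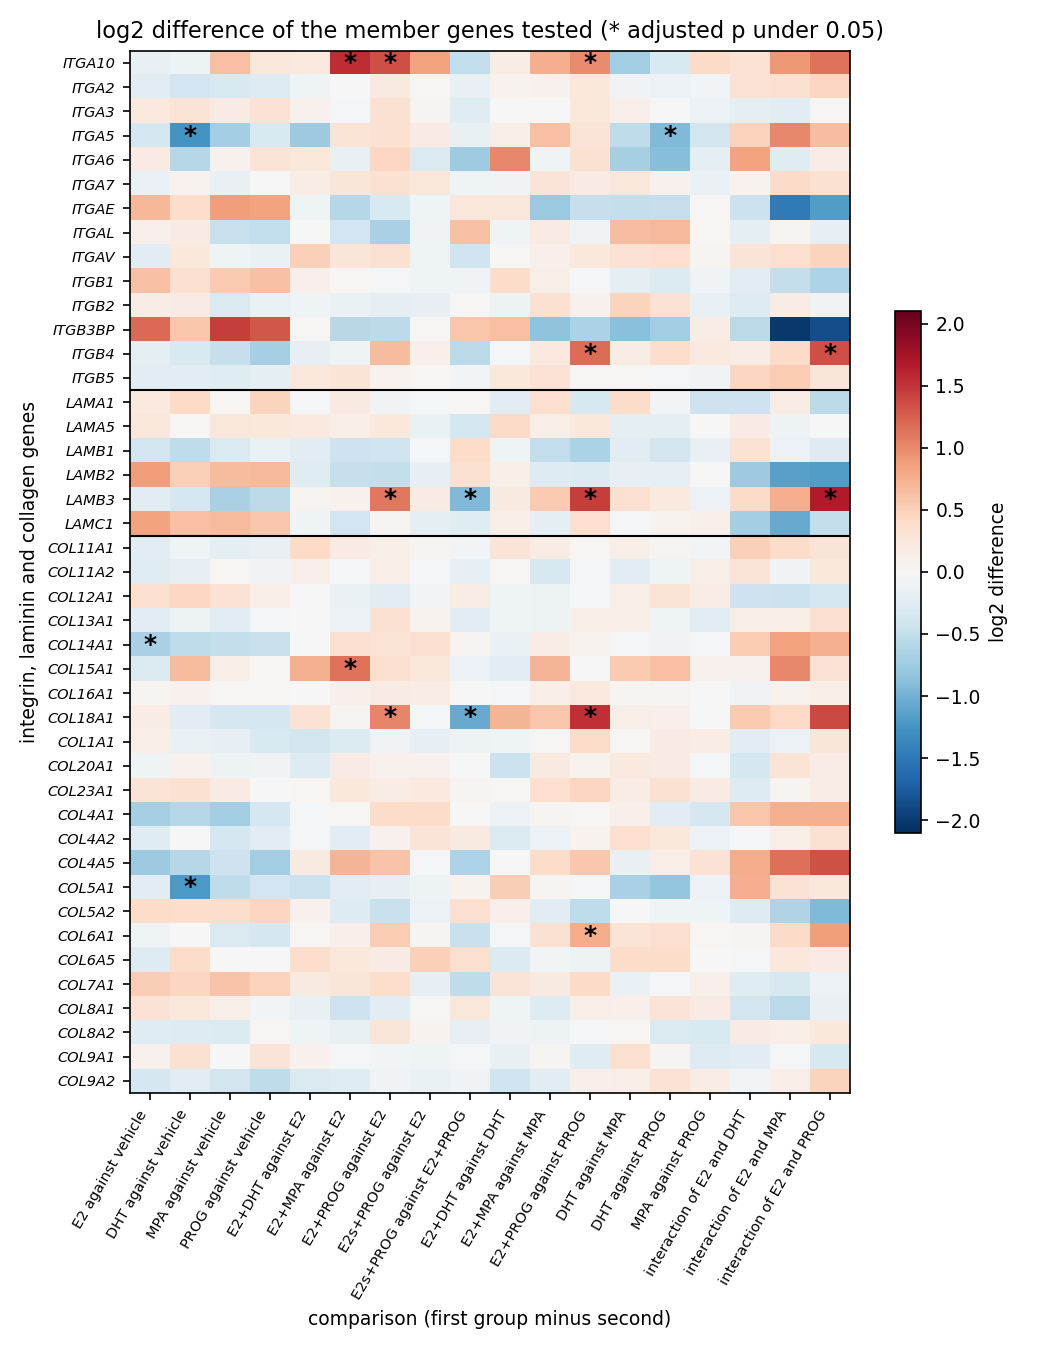
Log2 difference (colour, first group minus second) of the 43 integrin, laminin and collagen genes tested (vertical axis) in the 18 comparisons (horizontal axis), with an asterisk where the adjusted p is under 0.05. The 18 asterisks fall on 9 genes, and those of LAMB3, ITGB4, COL18A1 and COL6A1 all lie in comparisons that include E2+PROG.

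Members of all 3 families were higher with E2+PROG than with PROG alone. Relative to PROG alone, LAMB3, ITGB4, ITGA10, COL18A1 and COL6A1 rose, 5 of 43 members (11.6%) against 4.81% of all genes past the threshold in that comparison (3.76% higher), and no member fell. The 5 differences lay between 0.79 and 1.54 on the log2 scale. COL6A1 was above background on 5 arrays in all, 3 of E2+PROG, 1 of E2 and 1 of vehicle. Testing required at least 4 such arrays, so COL6A1 entered the 43 only through E2+PROG. Its place in the 5 of 43 is therefore not independent of that group. The median over all 43 members was 0.09, beside 0.03 over all genes. E2+PROG was not tested against vehicle. For LAMB3, ITGB4, ITGA10, COL18A1 and COL6A1, E2+PROG averaged 8.23, 9.35, 7.99, 8.335 and 6.19. Vehicle averaged 7.34, 8.88, 6.785, 7.14 and 5.75 in that order. The E2+PROG and vehicle arrays overlapped for ITGB4 and COL6A1. The other estradiol and progesterone group, E2s+PROG, averaged 7.30, 8.79, 7.47, 7.27 and 5.72. In a bulk sample, fewer cells with a transcript and less transcript per cell cannot be told apart.

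LAMB3 encodes the beta chain of the laminin that anchors epithelia through hemidesmosomes. Its signal was 7.80, 8.63, 7.84 and 8.67 in the 4 E2+PROG arrays, against 6.93, 6.81, 6.49 and 6.91 with PROG. Every E2+PROG array lay above every PROG array. The mean was 8.23 ± 0.48 with E2+PROG and 6.79 ± 0.20 with PROG (SD, n = 4 each), a difference of 1.45 (95% interval 0.98 to 1.91, limma adjusted p = 3.95e-05), or 2.73-fold. The 2 E2+PROG arrays from columns 13 to 24 were the 2 brightest. Outside those columns the difference was 1.03 (limma adjusted p = 0.00606). No PROG array lies inside them.

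ITGB4 encodes the beta subunit of the integrin that binds this laminin in hemidesmosomes. It had 8.96, 9.50, 9.30 and 9.67 with E2+PROG, against 7.96, 8.42, 8.12 and 8.22 with PROG. The groups did not overlap. The difference was 1.17 (95% interval 0.73 to 1.61, limma adjusted p = 0.000349), or 2.25-fold, and 0.94 outside columns 13 to 24 (limma adjusted p = 0.00444). The gene's second bright probe differed by 1.00 in the same direction, while its other 2 probes were above background on 2 arrays each. The alpha partner of ITGB4 in that integrin, ITGA6, spread too widely to be placed: its 4 E2+PROG arrays read 7.39, 5.68, 7.18 and 7.29, against 6.20, 5.93, 7.27 and 6.86 with PROG.

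COL18A1 encodes a basement membrane collagen whose tail is released as endostatin. The E2+PROG arrays read 8.32, 8.39, 8.31 and 8.32, against 7.13, 6.64, 6.94 and 6.47 with PROG. The 4 E2+PROG arrays had an SD of 0.03 and lay above all PROG arrays. The difference was 1.54 (95% interval 1.00 to 2.08, limma adjusted p = 0.000166), or 2.91-fold, and 1.52 outside columns 13 to 24 (limma adjusted p = 0.003).

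ITGA10 encodes an alpha subunit of a collagen-binding integrin, best known from cartilage. It had 7.86, 7.86, 7.95 and 8.29 with E2+PROG, against 6.57, 7.13, 6.99 and 7.34 with PROG, again without overlap. The difference was 0.99 (95% interval 0.47 to 1.50, limma adjusted p = 0.0137). It no longer passed without PROG replicate 1 (limma adjusted p = 0.0869), without E2+PROG replicate 4 (0.0716) or outside columns 13 to 24 (difference 0.90, limma adjusted p = 0.0555). COL6A1, a chain of the filament-forming collagen VI, was dim: 6.08, 6.40, 5.84 and 6.46 with E2+PROG, where 3 of 4 arrays were above background, against 5.32, 5.58, 5.31 and 5.41 with PROG, where 0 of 4 were. It was at least 1.19-fold higher with E2+PROG (limma adjusted p = 0.00328), the group without which it would not have been tested. Outside columns 13 to 24 it no longer passed (difference 0.55, limma adjusted p = 0.136).

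**Figure D2:**
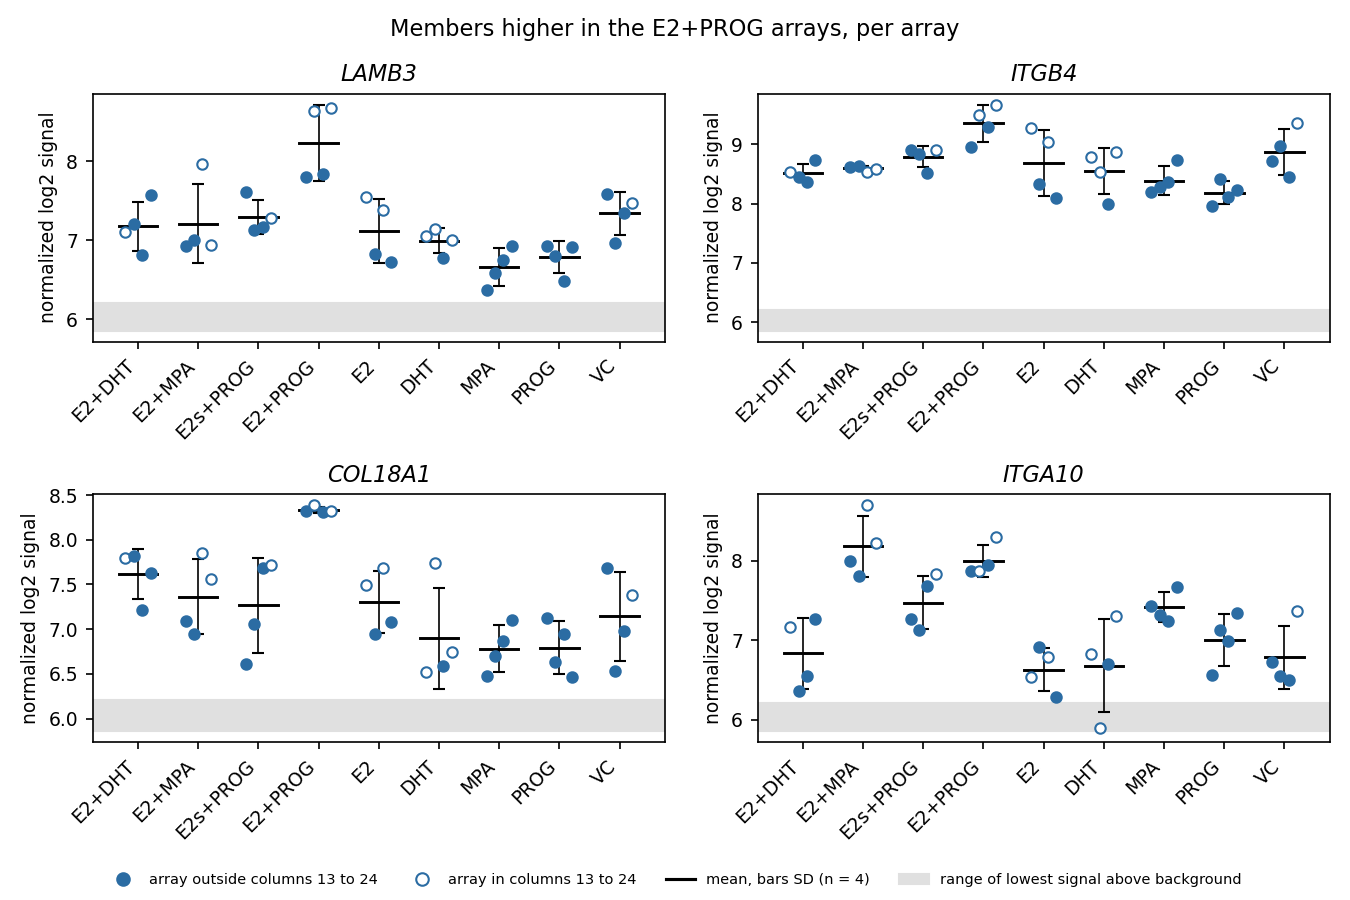
Normalized log2 signal (vertical axis) of LAMB3, ITGB4, COL18A1 and ITGA10 in every array of the 9 groups (horizontal axis). Points are arrays, open for those in columns 13 to 24 of the deposited table, bars are the mean with SD (n = 4), and grey marks the range of the lowest signal above background. The E2+PROG arrays of LAMB3 lie between 7.80 and 8.67 and those of COL18A1 between 8.31 and 8.39.

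The promoters of 3 members that rose together with E2+PROG are shown for their sequence, in lower case with each AGAACA or its reverse complement TGTTCT in capitals. AGAACA is a half-site of the receptors for progesterone, androgen and glucocorticoid. RefSeq gives them on GRCh38.p14 from 250 bases before to 50 after a transcript start: LAMB3 promoter 1 at chr1:209652376-209652675, minus strand, ITGA10 at chr1:145910001-145910300, minus strand, and COL18A1 promoter 1 at chr21:45404915-45405214, plus strand.
LAMB3: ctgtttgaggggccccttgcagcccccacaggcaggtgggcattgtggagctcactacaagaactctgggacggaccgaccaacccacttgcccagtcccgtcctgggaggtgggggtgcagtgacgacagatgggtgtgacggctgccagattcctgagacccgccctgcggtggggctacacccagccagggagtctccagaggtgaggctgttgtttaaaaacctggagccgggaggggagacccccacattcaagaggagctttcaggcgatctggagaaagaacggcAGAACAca
ITGA10: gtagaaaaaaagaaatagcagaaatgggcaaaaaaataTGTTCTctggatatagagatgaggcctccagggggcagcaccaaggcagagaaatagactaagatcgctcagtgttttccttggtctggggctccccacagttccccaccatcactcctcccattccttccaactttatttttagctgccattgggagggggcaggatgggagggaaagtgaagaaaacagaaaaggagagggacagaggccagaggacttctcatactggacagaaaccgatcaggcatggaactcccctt
COL18A1: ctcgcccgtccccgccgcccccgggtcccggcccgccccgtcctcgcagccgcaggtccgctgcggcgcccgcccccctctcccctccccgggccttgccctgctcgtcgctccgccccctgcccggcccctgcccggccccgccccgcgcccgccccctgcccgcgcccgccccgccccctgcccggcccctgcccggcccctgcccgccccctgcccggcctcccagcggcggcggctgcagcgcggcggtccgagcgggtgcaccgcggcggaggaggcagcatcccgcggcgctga
LAMB3 promoter 1 and ITGA10 hold 1 half-site each and COL18A1 promoter 1 holds 0. The half-site stands in 14.8% of the 35116 promoters of the table, counting both strands. The estrogen receptor half-site GGTCA, or its reverse complement TGACC, stands in 37.4% of them and in 0 of these 3. The full palindromes of the 2 half-sites, with a gap of 3 bases, stand in none of the 3, and in 0.057% (estrogen receptor) and 0.00285% of all promoters. The table gives LAMB3 3 promoters and COL18A1 2, of which the first is shown, and 6 of the 9 called members had an entry used here.

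Relative to E2 alone, 3 of 43 members (6.98%) rose with E2+PROG, against 2.51% of all genes past the threshold (1.86% higher): ITGA10, LAMB3 and COL18A1. The median over the members was 0.15, beside -0.03 over all genes. The E2 arrays read 6.54, 6.91, 6.78 and 6.29 for ITGA10, below all 4 E2+PROG arrays, and the difference was 1.36 (95% interval 0.85 to 1.87, limma adjusted p = 0.000737), or 2.57-fold. For LAMB3 they read 7.55, 6.83, 7.38 and 6.73, also below all E2+PROG arrays, with a difference of 1.11 (95% interval 0.65 to 1.57, limma adjusted p = 0.00261). Within columns 13 to 24 these 2 differences were 1.42 and 1.18, and outside them 1.30 and 1.04, with limma adjusted p of 0.202 and 0.129 inside and 0.0194 and 0.0396 outside.

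COL18A1 read 7.50, 6.95, 7.69 and 7.08 with E2, below the E2+PROG arrays, with a difference of 1.03 (95% interval 0.49 to 1.58, limma adjusted p = 0.0265). That call ended on leaving out any single E2+PROG array (limma adjusted p = 0.0581, 0.0776, 0.0596 and 0.0669 without replicates 1 to 4), E2 replicate 2 (0.132) or E2 replicate 4 (0.102). Inside columns 13 to 24 the difference was 0.76 and outside them 1.30, and neither passed (limma adjusted p = 0.636 and 0.0752). ITGB4 had 9.27, 8.34, 9.05 and 8.10 with E2 alone, which overlapped the E2+PROG arrays, and a difference of 0.67 that did not pass (limma adjusted p = 0.122).

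The interaction asks whether the PROG effect differs with E2 present, as the E2+PROG minus E2 difference less the PROG minus VC difference. LAMB3 and ITGB4 passed, 2 of 43 members (4.65%) against 1.54% of all genes (1.35% upward). LAMB3 gave 1.66 (95% interval 1.01 to 2.32, limma adjusted p = 0.00253). Behind it, LAMB3 differed by 1.11 between E2+PROG and E2 and by -0.56 between PROG and VC, the last not past the threshold (limma adjusted p = 0.167). ITGB4 gave 1.36 (95% interval 0.74 to 1.98, limma adjusted p = 0.0114), from 0.67 between E2+PROG and E2 and -0.70 between PROG and VC (limma adjusted p = 0.127). The 2 parts of the ITGB4 value were of similar size, and neither passed alone. Its second bright probe gave 1.60. The vehicle arrays read 7.58, 6.96, 7.35 and 7.47 for LAMB3 and 8.73, 8.97, 8.45 and 9.36 for ITGB4. Fitted to those 4 groups alone, ITGB4 no longer passed (limma adjusted p = 0.107). COL18A1, COL6A1 and ITGA10 had interactions of 1.38, 0.88 and 1.14 that did not pass (limma adjusted p = 0.0585, 0.0633 and 0.109).

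**Figure D3:**
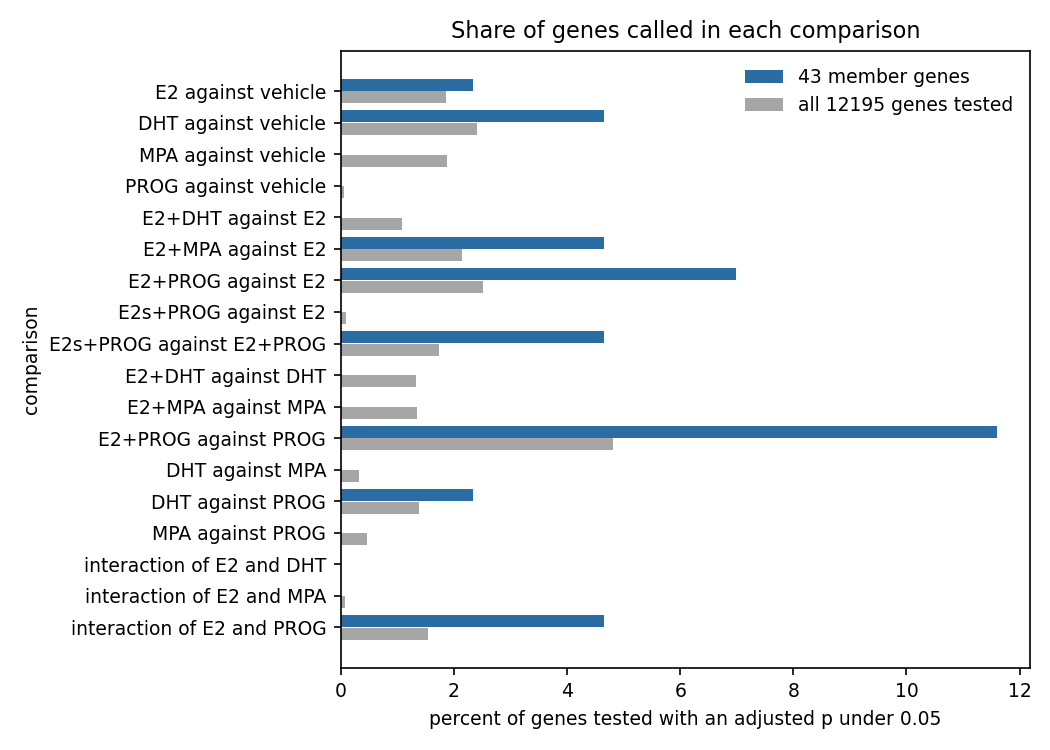
Percent of genes tested with an adjusted p under 0.05 (horizontal axis) among the 43 integrin, laminin and collagen genes and among all 12195 genes, for each comparison (vertical axis). The member share is 11.6% for E2+PROG against PROG, where the share of all genes is 4.81%, and 0 for 10 comparisons.

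The second group labelled estradiol with progesterone, E2s+PROG, differed from E2+PROG in 2 of 43 members (4.65%), against 1.74% of all genes (1.35% lower). COL18A1 and LAMB3 were lower. LAMB3 read 7.61, 7.13, 7.16 and 7.29 with E2s+PROG, below all 4 E2+PROG arrays, a difference of -0.93 (95% interval -1.40 to -0.47, limma adjusted p = 0.0218). COL18A1 read 6.61, 7.06, 7.68 and 7.72 with E2s+PROG, with a difference of -1.07 (95% interval -1.61 to -0.52, limma adjusted p = 0.0277). Neither call was robust to leaving out single arrays. LAMB3 lost its call without E2+PROG replicate 2 or 4 (limma adjusted p = 0.136 and 0.133) or without E2s+PROG replicate 2, 3 or 4 (0.0918, 0.0825 and 0.0525). COL18A1 lost its call without any one of E2+PROG replicates 1 to 4 (limma adjusted p = 0.0602, 0.081, 0.0566 and 0.0768) or without E2s+PROG replicate 1 or 2 (0.187 and 0.108). Outside columns 13 to 24 LAMB3 differed by -0.52 and COL18A1 by -1.20, and inside them by -1.36 and -0.63, with no call in either (limma adjusted p = 0.562 and 0.0769 outside, 0.308 and 1 inside). Inside them E2s+PROG has 1 array, replicate 4, assumed to vary like the arrays of the other groups. Relative to E2 alone, E2s+PROG had 0 members past the threshold, with 0.0902% of all genes called and 2 members (4.65%) at an unadjusted p under 0.05, against 1.78% of all genes. One of these was ITGA10, at 7.26, 7.12, 7.68 and 7.82 with E2s+PROG against 6.29 to 6.91 with E2, a difference of 0.84 (limma adjusted p = 0.787).

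Estradiol with MPA raised ITGA10 and COL15A1 relative to E2 alone, 2 of 43 members (4.65%) against 2.14% of all genes (1.23% higher). ITGA10 had 8.0, 7.80, 8.69 and 8.22 with E2+MPA, above all 4 E2 arrays, and the difference was 1.55 (95% interval 1.03 to 2.06, limma adjusted p = 0.000151), or 2.92-fold. It was 1.79 inside columns 13 to 24 and 1.30 outside them, and passed in both (limma adjusted p = 0.0223 and 0.0306). With MPA alone ITGA10 read 7.43, 7.31, 7.24 and 7.67, against 6.73, 6.55, 6.51 and 7.36 with vehicle, a difference of 0.63 that did not pass (limma adjusted p = 0.142).

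COL15A1 encodes a basement membrane collagen of the same subfamily as COL18A1. It had 6.06, 6.41, 7.60 and 6.96 with E2+MPA, all above background, against 5.66, 5.51, 5.60 and 5.72 with E2, where 0 of 4 arrays were. It was at least 1.72-fold higher with E2+MPA (limma adjusted p = 0.00435). The 2 brightest arrays, replicates 3 and 4, both lie in columns 13 to 24. The difference was 1.65 inside those columns (limma adjusted p = 0.0046) and 0.62 outside them (limma adjusted p = 0.843). The gene was also above background in 4 of 4 arrays of E2+DHT and of DHT, with means of 6.38 ± 0.34 and 6.59 ± 0.21 (SD, n = 4 each), but those groups did not differ from E2 or from vehicle past the threshold (limma adjusted p = 0.2 and 0.162).

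With no stated dose for MPA and PROG, the steroids are set side by side. LAMB3 averaged 7.21 ± 0.50 with E2+MPA and 8.23 ± 0.48 with E2+PROG (SD, n = 4 each), and COL18A1 averaged 7.36 ± 0.42 and 8.34 ± 0.03 in the same groups. ITGA10 averaged 8.18 ± 0.38 with E2+MPA and 7.99 ± 0.20 with E2+PROG. The 2 combinations were not tested against each other. Given alone, MPA and PROG differed in 0 members, with 0.459% of all genes past the threshold and 0 members at an unadjusted p under 0.05, against 3.33% of all genes. The interval of that difference ran from -0.59 to 0.34 for LAMB3, from -0.23 to 0.64 for ITGB4 and from -0.10 to 0.92 for ITGA10.

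A fibronectin receptor subunit and a fibrillar collagen were lower with DHT than with vehicle. DHT against vehicle called 2 of 43 members (4.65%), with 2.4% of all genes past the threshold (1.31% lower), and both ITGA5 and COL5A1 were lower. ITGA5 pairs with ITGB1 to form the main fibronectin receptor. Its signal was 6.07, 7.12, 6.11 and 6.08 with DHT, against 7.92, 7.30, 7.56 and 7.62 with vehicle. The highest DHT array, replicate 2, lay just below the lowest vehicle array. The difference was -1.25 (95% interval -1.70 to -0.81, limma adjusted p = 0.000514), or 2.38-fold lower with DHT, with 3 of 4 DHT arrays above background. DHT replicates 1, 3 and 4 read near the lowest signal above background on their arrays (6.075, 5.993 and 6.077), which limits the fold.

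COL5A1 encodes a chain of collagen V, which sets the width of collagen fibrils. It had 6.10, 6.08, 6.51 and 6.83 with DHT, against 7.96, 7.22, 7.37 and 7.80 with vehicle, without overlap. The difference was -1.21 (95% interval -1.69 to -0.73, limma adjusted p = 0.00225), or 2.31-fold lower with DHT. COL5A1 was above background on 3 of 4 DHT arrays. DHT replicates 1 and 2 read near the lowest signal above background on their arrays (6.075 and 6.21), which limits the fold. Fitted to the DHT and vehicle arrays alone, neither gene passed (limma adjusted p = 0.141 for ITGA5 and 0.114 for COL5A1). Outside columns 13 to 24 the DHT group has 1 array, replicate 3, and inside them vehicle has 1, so each lone array is assumed to vary like the arrays of the other groups. Outside, ITGA5 differed by -1.48 and COL5A1 by -1.01 (limma adjusted p = 0.0208 and 0.132), and inside by -1.20 and -1.46 (limma adjusted p = 0.779 and 0.312). A fit that allows for the columns and leaves out vehicle replicate 1, added after seeing the data, gave -1.19 and -1.21 (limma adjusted p = 0.00194 and 0.00156). With MPA against vehicle, ITGA5 differed by -0.72 and COL5A1 by -0.53, neither past the threshold (limma adjusted p = 0.0814 and 0.168). With PROG against vehicle they differed by -0.33 and -0.40 (limma adjusted p = 0.331 and 0.278).

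**Figure D4:**
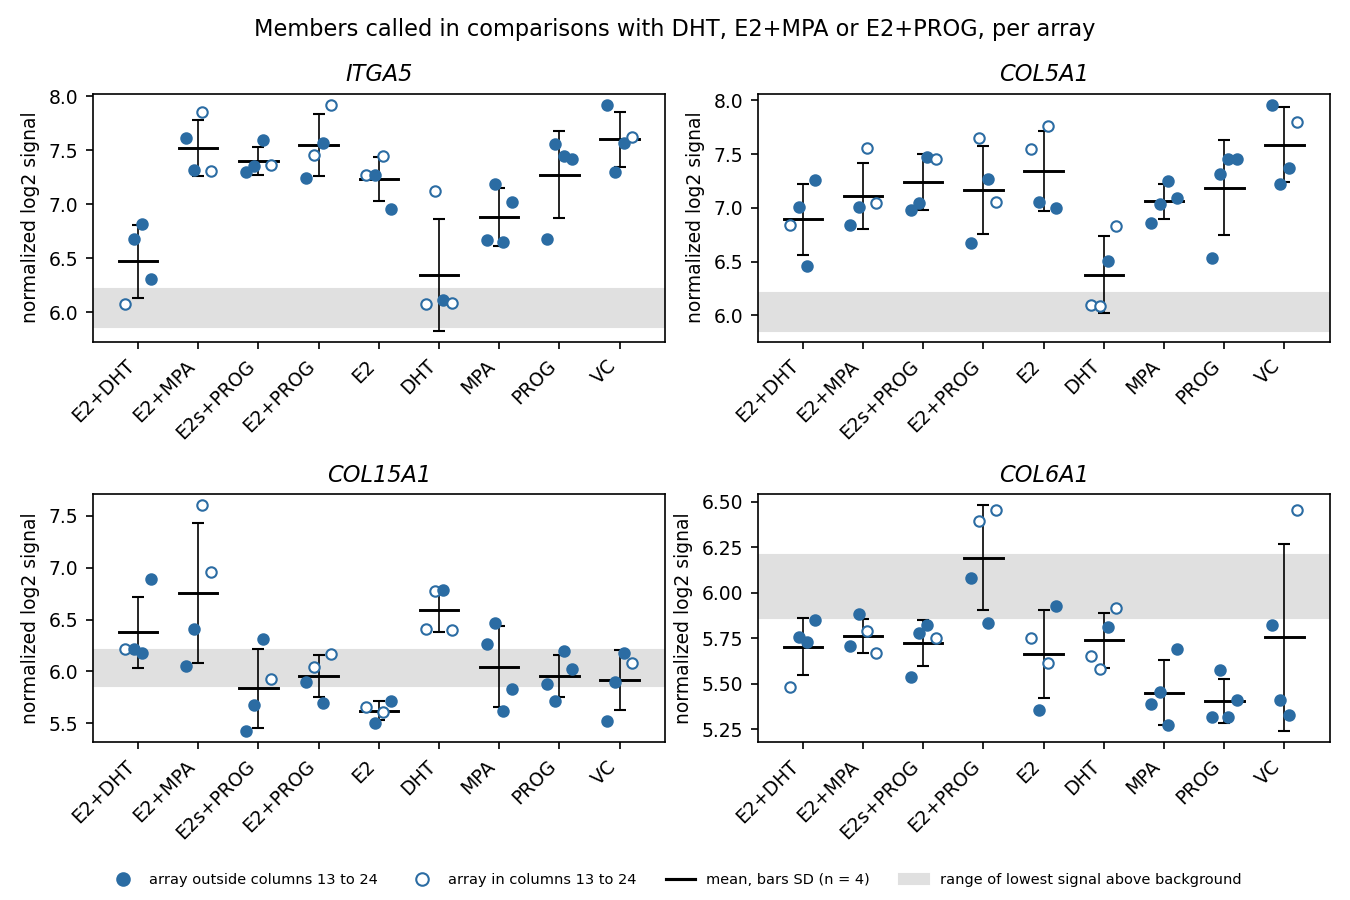
Normalized log2 signal (vertical axis) of ITGA5, COL5A1, COL15A1 and COL6A1 in every array of the 9 groups (horizontal axis), with points, bars and grey as in the plot of LAMB3 and ITGB4. For ITGA5, 3 of the 4 DHT arrays lie between 6.07 and 6.11, while the vehicle arrays lie between 7.30 and 7.92.

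Their promoters are shown as the pair that fell with DHT, with the same half-site in capitals. RefSeq places that of ITGA5 at chr12:54419217-54419516 on the minus strand and promoter 1 of COL5A1 at chr9:134641553-134641852 on the plus strand of GRCh38.p14.
ITGA5: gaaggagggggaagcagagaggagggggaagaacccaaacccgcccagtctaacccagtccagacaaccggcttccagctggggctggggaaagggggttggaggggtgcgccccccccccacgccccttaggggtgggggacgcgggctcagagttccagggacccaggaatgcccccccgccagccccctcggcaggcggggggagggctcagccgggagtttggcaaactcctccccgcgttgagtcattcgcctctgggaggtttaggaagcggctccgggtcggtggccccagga
COL5A1: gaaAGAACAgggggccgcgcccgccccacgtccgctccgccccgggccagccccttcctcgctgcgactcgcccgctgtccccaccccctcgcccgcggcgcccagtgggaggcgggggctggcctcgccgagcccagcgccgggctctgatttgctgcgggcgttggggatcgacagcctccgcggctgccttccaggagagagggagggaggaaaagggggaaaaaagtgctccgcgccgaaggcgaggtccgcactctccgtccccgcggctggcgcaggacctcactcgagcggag
The AGAACA half-site is found 0 times in that of ITGA5 and 1 time in that of COL5A1.

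With E2 present, DHT called 0 members against E2 alone, with 1.08% of all genes past the threshold and 4 members (9.3%) at an unadjusted p under 0.05, against 5.93% of all genes. ITGA5 read 6.07, 6.68, 6.81 and 6.31 with E2+DHT, below the 7.27, 7.27, 7.44 and 6.96 with E2, but the difference of -0.77 did not pass (limma adjusted p = 0.103). The interaction of E2 and DHT was 0.49 for ITGA5 (95% interval -0.14 to 1.11, limma adjusted p = 0.91), so a difference between the 2 DHT effects was not shown. Against PROG, DHT called 1 member (2.33%, with 1.38% of all genes, 0.271% lower), again ITGA5, with 6.67, 7.55, 7.45 and 7.42 in the PROG arrays and a difference of -0.93 (95% interval -1.37 to -0.48, limma adjusted p = 0.0194). This call ended without DHT replicate 1 (limma adjusted p = 0.105) or 4 (0.0984), without PROG replicate 2 (0.0973), 3 (0.0827) or 4 (0.0753), and outside columns 13 to 24, where the difference on the 1 DHT array was -1.16 (0.234). DHT and MPA differed in 0 members, with 0.312% of all genes called and 7 members (16.3%) at an unadjusted p under 0.05, against 11.1% of all genes. DHT was at 10 nM, and the PROG and MPA doses are not given.

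Estradiol alone called 1 of 43 members against vehicle (2.33%, with 1.86% of all genes, 0.672% lower), the fibril-associated collagen COL14A1. It read 5.27, 5.69, 5.68 and 5.96 with E2, with 1 array above background, against 6.75, 6.06, 6.49 and 6.02 with vehicle, with 3 above. The difference was -0.68 (95% interval -1.05 to -0.31, limma adjusted p = 0.0415). The call ended without E2 replicate 1, 2 or 3 (limma adjusted p = 0.103, 0.102 and 0.0807), without vehicle replicate 1 or 3 (0.267 and 0.132) and outside or inside columns 13 to 24 (difference -0.61 and -0.54, limma adjusted p = 0.0634 and 1), with 1 vehicle array inside.

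In the remaining comparisons 0 members passed. The share of all genes past it was 1.88% for MPA against vehicle, 0.0574% for PROG against vehicle, 1.33% for E2+DHT against DHT and 1.35% for E2+MPA against MPA. It was 0.0082% and 0.0656% for the interactions of E2 with DHT and with MPA. At an unadjusted p under 0.05, 12 members (27.9%) stood against 25.5% of all genes for MPA against vehicle, and 11 (25.6%) against 23.6% for PROG against vehicle. The counts were 5 (11.6%) against 10.1% for E2+DHT against DHT and 7 (16.3%) against 17.2% for E2+MPA against MPA. For the 2 interactions they were 4 (9.3%) against 5.47% and 10 (23.3%) against 24.1%. Leaving out vehicle replicate 2 gave 6 calls for MPA against vehicle (COL14A1, ITGA5, ITGAE, ITGB1, ITGB3BP and LAMB3), with 13.9% of all genes called in that fit, and 3 for PROG against vehicle (ITGAE, ITGB1 and ITGB3BP), with 7.73%. For ITGAE, ITGB1 and ITGB3BP, vehicle replicate 1, which stays in that fit, read 8.11, 11.45 and 5.80, below the lowest of the other vehicle arrays at 9.32, 12.93 and 8.29.

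Several members that passed nowhere are central to epithelial adhesion. ITGB1, the common beta subunit of the laminin, collagen and fibronectin receptors, averaged from 13.06 ± 0.28 with DHT to 13.45 ± 0.24 with E2+DHT in the treated groups, and 12.72 ± 0.87 with vehicle (SD, n = 4 each). Its second probe ran the other way, with 11.71 for E2 and 12.38 for vehicle, against 13.34 for E2 and 12.72 for vehicle on the first, so no direction is given for it. The 3 kept probes of ITGB5, which pairs with ITGAV, disagreed in the same way, and its other 2 were above background on 0 arrays: E2 and vehicle means were 13.01 and 13.25 on one, 9.81 and 10.21 on another, and 11.24 and 10.68 on the third. ITGAV averaged 10.98 ± 0.22 with E2+DHT and 10.48 ± 0.23 with E2, a difference of 0.49 that did not pass (limma adjusted p = 0.0798) and that passed without E2 replicate 1.

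Of the alpha subunits that pair with ITGB1, ITGA2 averaged from 8.98 ± 0.09 with DHT to 9.32 ± 0.18 with E2+PROG in the treated groups, and 9.37 ± 0.22 with vehicle, and its lowest adjusted p in any of the 18 comparisons was 0.182. ITGA3 averaged from 9.67 ± 0.19 with E2+MPA to 10.03 ± 0.12 with E2+PROG, and 9.51 ± 0.22 with vehicle (lowest adjusted p 0.231).

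Among the laminin chains, LAMA5 averaged from 12.46 ± 0.40 with DHT to 12.88 ± 0.16 with E2+PROG, and 12.43 ± 0.14 with vehicle. LAMB1 averaged from 7.33 ± 0.37 with E2+MPA to 8.01 ± 0.23 with PROG, and 8.15 ± 0.47 with vehicle. The second kept probe of LAMB1, above background on 17 arrays, averaged 6.83 with PROG and 5.92 with vehicle. The 2 probes thus order PROG and vehicle differently. LAMB2 averaged from 9.09 ± 0.36 with E2+PROG to 9.59 ± 0.42 with E2, and 8.71 ± 0.79 with vehicle. For LAMC1, the gamma chain shared by many laminins, the 8 treated groups averaged between 10.66 ± 0.06 and 11.11 ± 0.17, and vehicle 10.20 ± 1.77. That vehicle spread came from replicate 1, which read 7.58 where the other 3 vehicle arrays read 10.73 to 11.33. Vehicle replicate 1 was also lowest for LAMB2 (7.73, against 8.43 to 9.38).

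Among the collagens, COL1A1 of the fibrils averaged from 7.87 ± 0.22 with PROG to 8.33 ± 0.38 with E2, and 8.19 ± 0.39 with vehicle. COL12A1, which lies along fibrils, averaged from 6.87 ± 0.28 with E2+PROG to 7.19 ± 0.67 with DHT, and 6.75 ± 0.33 with vehicle. The basement membrane chains COL4A1, COL4A2 and COL4A5 were near background, with 0 to 3, 1 to 4 and 3 to 4 arrays above it per group. COL4A5 read 6.09, 6.32, 7.68 and 7.33 with E2+MPA, against 6.69, 5.59, 6.30 and 5.99 with E2, and the groups overlapped.

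Members also differed by the column position of the array. Within groups, ITGA6 differed by -1.01, ITGB3BP by -0.96 and ITGAE by -0.82 between the arrays in columns 13 to 24 and the others (limma adjusted p = 4.47e-05, 0.00172 and 6.46e-05). ITGAL differed by 0.47 and COL1A1 by 0.46. COL18A1 was higher there by 0.42, ITGB4 by 0.41, LAMB3 by 0.38 and ITGA10 by 0.34 (limma adjusted p = 0.0133, 0.00129, 0.00708 and 0.0367). With the columns as a block, E2+PROG against PROG gave 1.26 for LAMB3, 0.97 for ITGB4, 1.33 for COL18A1, 0.82 for ITGA10 and 0.71 for COL6A1, all past the threshold (limma adjusted p = 6.3e-05, 0.000449, 0.000362, 0.0418 and 0.00954).

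**Figure D5:**
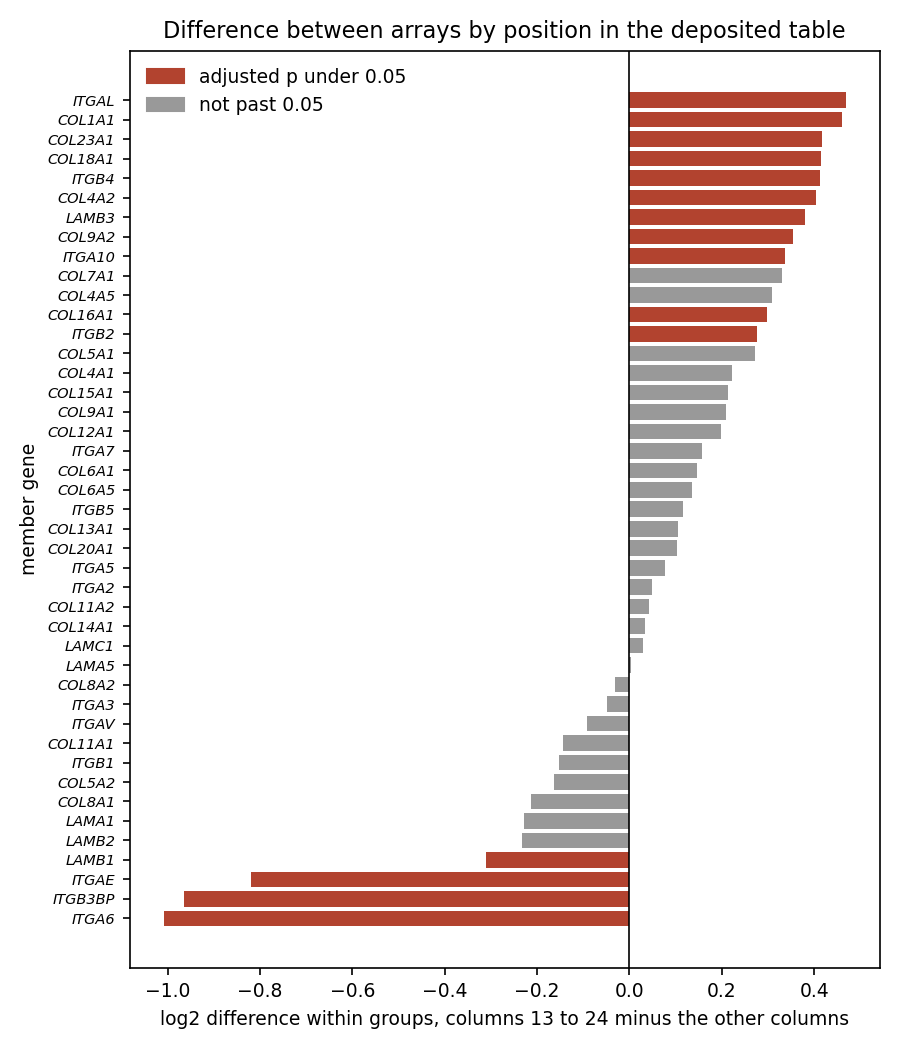
Log2 difference within groups between the 12 arrays in columns 13 to 24 of the deposited table and the other 24 (horizontal axis) for each of the 43 member genes (vertical axis), in red where the adjusted p is under 0.05. The bars run from -1.01 for ITGA6 to 0.47 for ITGAL.

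Genes that act with the members were taken as 5 lists. Of 22 integrin adaptors tested, 3 (13.6%) rose with E2+PROG relative to E2, where 2.51% of all genes passed (1.86% higher), and 0 fell: ACTN1, which links integrins to actin, by 0.72 (limma adjusted p = 0.0239), the kindlin FERMT2 by 0.50 (0.0123) and the tensin TNS3 by 0.60 (0.0182). The same 3 passed in the interaction of E2 and PROG (1.54% of all genes, 1.35% upward), at 1.14, 0.65 and 1.13 (limma adjusted p = 0.0132, 0.0396 and 0.00152). The median of the 22 was 0.14, beside -0.03 over all genes. Outside columns 13 to 24, 0 of the 22 passed against E2, and of these 3 TNS3 alone passed in the interaction (1.15, limma adjusted p = 0.0213). Of 10 other laminin and collagen receptors, 1 (10%) passed against E2: CD9, a tetraspanin that associates with integrins, rose by 1.50 (limma adjusted p = 0.000107), and 0 fell. It also passed outside those columns. Relative to PROG, where 4.81% of all genes passed, 1 of the 22 adaptors (4.55%) did, ACTN1 by 0.88 (limma adjusted p = 0.00188). ACTN1 did not pass there outside those columns (0.72, limma adjusted p = 0.0757). Relative to PROG 0 of the 10 receptors passed, while CD9 passed outside those columns and with them as a block.

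Relative to PROG, where 4.81% of all genes passed (3.76% higher), 4 of 8 matrix proteases and inhibitors tested (50%) rose with E2+PROG and 0 fell: the inhibitors TIMP1 by 1.55 and TIMP2 by 1.06, and the metalloproteinases MMP11 by 1.20 and MMP15 by 0.70 (limma adjusted p = 5.18e-06, 0.000143, 0.000928 and 0.0481). The median of the 8 was 0.62, beside 0.03 over all genes. All but MMP15 passed outside columns 13 to 24. Of 9 matrix ligands, 3 (33.3%) rose and 0 fell, while their median was -0.14: THBS1, a thrombospondin, by 1.84, the fibulin FBLN1 by 0.85 and AGRN, the basement membrane proteoglycan agrin, by 0.61 (limma adjusted p = 3.74e-06, 0.000477 and 0.0263). AGRN did not pass outside the columns. Relative to E2, where 2.51% of all genes passed, 1 of the 9 ligands (11.1%) and 1 of the 8 proteases and inhibitors (12.5%) rose. EFEMP1, another fibulin, rose by 0.96 (limma adjusted p = 0.00249) and TIMP1 by 1.02 (0.00395). TIMP1 did not pass outside the columns (0.91, limma adjusted p = 0.115). In E2s+PROG against E2+PROG, where 1.35% of all genes were lower, TIMP1, TIMP2, EFEMP1, FERMT2, TNS3 and CD9 were lower. They were 25% of the proteases and inhibitors, 11.1% of the ligands, 9.09% of the adaptors and 10% of the other receptors. Of these genes, CD9 alone passed outside the columns.

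Of 21 genes for collagen processing, P3H2, which hydroxylates prolines of basement membrane collagen, was far higher with E2+PROG: 10.63 ± 0.16 with E2+PROG and 6.18 ± 0.23 with E2 (SD, n = 4 each), 4.45 apart (limma adjusted p = 1.09e-16). With E2s+PROG it averaged 7.38 ± 0.37, a difference of -3.25 from E2+PROG (limma adjusted p = 5.25e-13). P3H2 was also higher than with E2 in E2+MPA, at 8.49 ± 0.39, by 2.31 (limma adjusted p = 1.99e-09). The same held for E2+DHT, at 7.38 ± 0.10, by 1.20 (0.000599), and for E2s+PROG by 1.20 (0.00409). The last of these did not pass outside columns 13 to 24 (1.16, limma adjusted p = 0.264). LOXL4, which crosslinks collagen, ran with estradiol. It averaged 7.49 ± 0.38 with E2 and 5.47 ± 0.29 with vehicle, where 0 of 4 arrays were above background, and was at least 2.78-fold higher with E2 (limma adjusted p = 1.39e-09). It was lower with E2+PROG than with E2, by a difference of -0.73 (limma adjusted p = 0.0195), which did not pass outside columns 13 to 24 (-0.52, limma adjusted p = 0.237). Over the 21 genes, 1 rose and 1 fell with E2+PROG relative to E2 (9.52%, against 2.51% of all genes), with a median of 0.02. Relative to PROG, P3H2, LOXL4 and P4HA2 rose (14.3%, against 4.81% of all genes), P4HA2 by 0.77 (limma adjusted p = 0.0104). In E2+MPA against E2, P3H2 was higher while LOXL1 (-0.89, limma adjusted p = 0.0225) and LOXL4 (-0.82, 0.00773) were lower (14.3%, against 2.14% of all genes). Outside columns 13 to 24, P4HA2 did not pass, nor did LOXL1 or LOXL4 with E2+MPA.

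In the comparisons with vehicle 1.86% of all genes passed with E2, 1.88% with MPA and 2.4% with DHT. With E2, THBS1 differed by 0.94, EFEMP1 by -0.75 and TNS3 by -0.66 (limma adjusted p = 0.0448, 0.0336 and 0.00989). With MPA, the talin TLN2 differed by -0.81, TNS3 by -0.69 and P3H2 by 0.90 (limma adjusted p = 0.0292, 0.00752 and 0.0138). With DHT, BMP1, which trims procollagen, differed by -0.81 and TLN2 by -0.83 (limma adjusted p = 0.0343 and 0.021), the only genes of the 5 lists past the threshold there. Outside columns 13 to 24, THBS1 with E2 (0.47, limma adjusted p = 0.275) and BMP1 with DHT, on 1 DHT array (-0.91, limma adjusted p = 0.147), did not pass, while the others named here did.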

How the data were processed

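Per the labels' protocols, biotinylated cRNA of the 36 ZR-75-1 samples was run on Illumina bead arrays. Per the file headers, the deposited main table holds an unnormalized intensity and a detection p-value for each probe and array. A second deposited intensity table is, tested on its values, a straight line of the first within each array (slopes 0.324 to 1.573, largest deviation 0.128). It was used as an alternative.

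The tools were R 4.3.3, limma 3.58.1 and, for reading files, data.table in version 1.17.8. The neqc function took the unnormalized intensity, inferred background from the detection p-values, added an offset of 16, normalized by quantiles and took log2. Median raw intensity ran from 121.6 to 247.5 per array, and 33.2% to 37.9% of probes were above background (detection p under 0.05). The lowest log2 signal above background was 5.86 to 6.21 per array. Probes above background on at least 4 arrays were kept (21116 of 48803). Of 27578 probes with 1 annotated symbol, 27541 matched the reference gene table and 0 symbols changed. Probes with more than 1 symbol (13) or without a symbol (21212) were not used. Each gene was read by its probe with the highest mean (12195 genes; 3207 had several kept probes).

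Groups came from the sample labels, and 0 columns were of other samples. In limma, 1 mean per group was fitted over all 36 arrays (leaving 27 residual degrees of freedom) for 18 contrasts, adjusted by Benjamini-Hochberg over all genes, with a threshold of 0.05 and 95% intervals. Where 0 of 4 arrays of the dimmer group were above background, the fold is a lower bound against the lowest signal above background on each array. Such a bound uses the higher of that signal and the gene's own. The number of arrays limits the precision.

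The members, the 5 pathway lists, the 5 marker lists and the tests were chosen with earlier results of these data known. Every member past the threshold in any comparison is named, as are fixed members of epithelial adhesion. Pathway genes that passed are named, but not for every comparison in which they passed. Within a group, arrays correlated at 0.915 to 0.994. Replicate numbers did not pair the arrays: residuals of same-numbered arrays had a median correlation of 0.03 (-0.73 to 0.70), and those of differently numbered arrays -0.03. Alternatives covered normalization, filter, probe choice, the replicate number and the column position as blocks, array subsets, array weights and single arrays left out. No sequence of chromosome 8 was used, and promoter sequences are RefSeq's on GRCh38.p14.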

Additional observations from a re-analysis of the deposited data

Results flagged for a closer look

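For the 9 called members, each of 81 groups of 4 arrays was examined for an array far from the other 3, and 6 stood apart by more than Dixon's 95% limit. Chance gives about 1 in 20. LAMB3 read 7.96 in E2+MPA replicate 3, with 6.93 to 7.01 in the others. ITGB4 read 8.52 in E2s+PROG replicate 3, with 8.84 to 8.90 in the others. ITGA5 read 7.12 in DHT replicate 2, with 6.07 to 6.11 in the others, and 6.67 in PROG replicate 1, with 7.42 to 7.55 in the others. COL5A1 was also low in PROG replicate 1, at 6.53, with 7.32 to 7.45 in the others. COL15A1 read 6.89 in E2+DHT replicate 4, with 6.18 to 6.22 in the others.

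The effect of PROG differed with and without E2, by the test of the interaction itself, for LAMB3 (1.66 on the log2 scale, limma adjusted p = 0.00253) and ITGB4 (1.36, limma adjusted p = 0.0114).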

How the results depend on the processing

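No alternative turned the direction of a called difference. The numbers of members called depended on the setting, and the cause was not tested. E2 against vehicle (1 member called) gave 0 with log2 and quantile normalization alone, with the authors' processed values, with a strict filter, inside columns 13 to 24 and with those groups alone, 4 with the columns as a block, 4 outside them, 5 with array weights and 0 to 3 with single arrays left out. DHT against vehicle (2) gave 1 outside the columns, 0 inside them, 0 with those groups alone and 4 with array weights. MPA against vehicle (0) gave 2 outside the columns, 3 with array weights and 0 to 6 with single arrays left out, and PROG against vehicle (0) gave 1, 3 and 0 to 3. E2+DHT against E2 (0) gave 1 with array weights and 0 to 1 with single arrays left out. E2+MPA against E2 (2) gave 1 with a strict filter, outside the columns, with those groups alone and with array weights, and 4 inside the columns. E2+PROG against E2 (3) gave 5 with the columns as a block and 0 inside them, where each group has 2 arrays. E2s+PROG against E2+PROG (2) gave 0 outside the columns, inside them and with those groups alone, and 0 to 1 with single arrays left out. E2+DHT against DHT (0) gave 1 with the columns as a block and 5 with array weights, DHT against MPA (0) gave 4 with array weights, and E2+MPA against MPA (0) gave 0 to 1 with single arrays left out. E2+PROG against PROG (5) gave 3 outside the columns and 4 to 6 with single arrays left out. DHT against PROG (1) gave 0 with log2 and quantile normalization alone, outside the columns and with those groups alone, 2 with the processed values, 2 with the columns as a block, 8 with array weights and 0 to 3 with single arrays left out. The interaction of E2 and MPA (0) gave 0 to 5 with single arrays left out. The interaction of E2 and PROG (2) gave 4 with the columns as a block, 4 outside them, 1 with those groups alone, 7 with array weights and 2 to 4 with single arrays left out. Alternatives not named gave counts within 1.5 times.

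With the replicate block, every comparison kept its count of members except the interaction of E2 and PROG, which gave 3. All 18 called differences passed under it. LAMB3, COL18A1 and ITGB4 against PROG passed in all 19, 19 and 18 alternatives run for each, and ITGA10 in E2+MPA against E2 in 20 of 20. COL14A1 passed in 9 of 20. Signal near background limits COL6A1, COL14A1 and COL15A1, and also ITGA5 and COL5A1 in the DHT arrays. Arrays inside the columns alone, the columns as a block without vehicle replicate 1, and every kept probe tested apart were alternatives chosen after seeing the data.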
